A study of Mus musculus with 40 samples.

Results

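The sterol and fatty acid synthesis genes described here are 31 of the 55421 genes in the count table, chosen by symbol from a list. The list joins enzymes of cholesterol synthesis, their SREBP regulators, the LXR-driven export genes and genes of fatty acid synthesis. Each of the 31 symbols matched exactly 1 row. By role they fall into 7 enzymes of the mevalonate steps, 11 enzymes from squalene to cholesterol, 6 genes that are SREBP regulators or the sterol carrier Stard4, 4 LXR and export genes, and 3 genes of fatty acid synthesis. Their levels were read in regulatory T cells (Treg) and conventional T cells (Tconv) of the mouse.

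Cells take cholesterol from lipoproteins or build it from acetyl-CoA through mevalonate, squalene and lanosterol. When sterols in the endoplasmic reticulum are low, the escort protein SCAP carries SREBP factors to the Golgi, where they are cut and released to switch on the synthesis genes, and the INSIG proteins hold SCAP back when sterols are high. When sterols are plentiful, oxysterols activate the LXR receptors, which switch on the export pumps ABCA1 and ABCG1 and the ubiquitin ligase MYLIP, which marks lipoprotein receptors for degradation. T cells are known to raise sterol synthesis and to lower export when they are activated to divide.

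The study sorted CD4+ Foxp3Thy1.1+ Treg and Foxp3Thy1.1- Tconv, 2000 cells for each library, from 10 sources of perfused mice, and measured them by 3′ mRNA sequencing. All 40 libraries carry the genotype label WT, and Treg were told from Tconv by a Thy1.1 reporter of Foxp3, so Foxp3 itself was used in the sort. There were 3 Treg libraries and 1 Tconv library from every source. The sources were blood, spleen and lymph node, called lymphoid here, then kidney, liver, lung and pancreas, called solid organs, then the intraepithelial (IEL) and lamina propria (LPL) fractions of the small intestine, called the gut wall, and Peyer's patch, which was kept apart. Tissue means the solid organs and the gut wall together. Strain, sex and age, and which libraries came from the same animal, are not given in the sources used here. A p-value thus measures the spread between these libraries, which may be partly technical. In the Treg comparisons between sources this is the spread between libraries of 1 source. The spread between the sources that make up a group is not part of it.

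Libraries held between 12197980 and 28823493 counts. Foxp3 separated the labels, with 68.2 to 309 CPM, the count scaled to library size, in the 30 Treg libraries and 0.162 to 6.74 CPM in the 10 Tconv libraries. T cell marker genes took 0.345% to 0.536% of counts in tissue Treg and 0.379% to 0.524% in lymphoid Treg. RNA of other cells was present in some libraries. Genes of pancreatic acinar cells took 2.16% to 9.78% of counts in pancreas Treg. Myeloid genes reached 0.161% in lung Treg against at most 0.00406% in lymphoid Treg. Intestinal epithelial genes took 0.0055% to 0.0874% in gut wall Treg against at most 0.00443% in lymphoid Treg. Epcam, counted among these epithelial genes, was read in every Treg library (4.86 CPM or more), so a small share need not be epithelial RNA. B cell genes took 0.0599% to 0.139% in lymphoid Treg, 0.0349% to 0.122% in tissue Treg and 0.142% to 0.178% in Peyer's patch Treg. Of these genes Ighm was read in every Treg library, at 411 CPM or more. In such bulk libraries fewer cells of a type and less RNA per cell cannot be told apart. All 31 genes passed the filter on low counts in every comparison, and because 3′ counts are not divided by length, levels are compared between libraries and never between genes.

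Of the 31 genes, 25 have a promoter window in the RefSeq table of build GRCm38.p6, which runs from 250 bases before to 50 bases after the start. The CCAAT box, searched as CCAAT on both strands, was in 20 of these 25 windows (80%) and in 14 of the 15 windows of synthesis enzymes (93.3%), against 41.1% of 27025 genes. The sterol regulatory element, searched as TCACNCCAC on both strands, was in 1 of the 25 windows, that of Hmgcs1, against 1.44% of genes. The 2 motifs overlapped in none of the windows printed here. The 6 genes with the lowest p for differences between sources whose 250 bases upstream hold a searched motif are shown. The windows are chr5:28071162-28071411 (plus strand) for Insig1, chr13:119690101-119690350 (plus) for Hmgcs1, chr5:4104698-4104947 (minus) for Cyp51, chr13:45389492-45389741 (plus) for Mylip, chrX:8193513-8193762 (minus) for Ebp and chr13:8885356-8885605 (plus) for Idi1. Each is written 5′ to 3′ on the strand of its gene, with the CCAAT box or its reverse complement in capitals, and in Hmgcs1 also the sterol regulatory element. A match describes letters in these windows and is not a measured binding site.
Insig1: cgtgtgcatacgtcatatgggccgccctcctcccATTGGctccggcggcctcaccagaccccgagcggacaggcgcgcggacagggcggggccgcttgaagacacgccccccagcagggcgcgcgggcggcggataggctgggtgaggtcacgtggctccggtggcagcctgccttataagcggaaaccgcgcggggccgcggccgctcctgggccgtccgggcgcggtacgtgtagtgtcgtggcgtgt
Hmgcs1: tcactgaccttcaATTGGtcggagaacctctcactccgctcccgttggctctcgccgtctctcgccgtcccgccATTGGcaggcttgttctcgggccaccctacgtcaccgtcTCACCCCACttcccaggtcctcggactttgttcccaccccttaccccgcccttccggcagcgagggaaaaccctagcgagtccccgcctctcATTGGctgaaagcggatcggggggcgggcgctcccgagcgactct
Cyp51: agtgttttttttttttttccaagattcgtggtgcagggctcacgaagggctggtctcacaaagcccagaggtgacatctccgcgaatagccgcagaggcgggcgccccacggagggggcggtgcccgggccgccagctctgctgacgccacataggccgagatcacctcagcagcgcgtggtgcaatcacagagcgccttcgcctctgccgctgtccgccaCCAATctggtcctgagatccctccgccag
Mylip: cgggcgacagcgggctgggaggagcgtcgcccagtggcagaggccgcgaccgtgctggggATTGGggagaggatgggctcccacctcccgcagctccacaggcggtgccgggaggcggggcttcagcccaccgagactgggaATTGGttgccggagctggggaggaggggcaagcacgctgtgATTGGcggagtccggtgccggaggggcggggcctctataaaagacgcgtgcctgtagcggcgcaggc
Ebp: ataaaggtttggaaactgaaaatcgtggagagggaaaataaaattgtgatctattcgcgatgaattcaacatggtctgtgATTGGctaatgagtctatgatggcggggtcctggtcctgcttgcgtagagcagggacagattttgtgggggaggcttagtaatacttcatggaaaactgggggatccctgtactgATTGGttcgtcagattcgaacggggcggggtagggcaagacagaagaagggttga
Idi1: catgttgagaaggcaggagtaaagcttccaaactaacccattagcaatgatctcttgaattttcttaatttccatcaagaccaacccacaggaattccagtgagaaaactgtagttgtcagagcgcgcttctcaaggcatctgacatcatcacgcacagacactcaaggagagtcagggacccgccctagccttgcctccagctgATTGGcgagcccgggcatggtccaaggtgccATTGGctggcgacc
In the printed bases Hmgcs1 carries 3 CCAAT boxes and the sterol regulatory element, Mylip 3 CCAAT boxes, Ebp and Idi1 2 each, and Insig1 and Cyp51 1 each. The box therefore stands before the RefSeq start of genes that were higher in tissue (Insig1, Hmgcs1, Cyp51 and Idi1). It also stands before that of an export gene that was lower there (Mylip). The count table starts Idi1 at 8885501 and Cyp51, on the minus strand, at 4104746. By those starts the boxes of Idi1 and Cyp51 lie inside the counted gene.

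The first question was whether these genes vary with the source of the Treg at all. In an edgeR quasi-likelihood test that all 10 source means are equal, 21 of the 31 genes passed an adjusted p of 0.05, where 34.5% of the 17909 genes tested did. Insig1 (adjusted p = 4.9e-08), which encodes the SREBP brake that is itself an SREBP target, had the lowest p. Hmgcs1 (3.1e-06), Cyp51 (1.5e-05), Abcg1 (6.9e-06) and Scd2 (0.0054) led the mevalonate, squalene to cholesterol, LXR and export, and fatty acid groups. The 10 genes that did not pass were Acat2, Pmvk, Fdps, Tm7sf2, Dhcr7, Scap, Insig2, Nr1h2, Fasn and Acaca.

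Insig1 (ENSMUSG00000045294.11, chr5:28071363-28078662 in the count table, mm10) was the gene with the lowest p. Its level was 24.3, 34.8 and 37.9 CPM in the 3 blood Treg libraries, 28.9, 33.0 and 41.2 CPM in spleen and 42.0, 61.9 and 67.5 CPM in lymph node. Among the solid organs it was 26.5, 31.5 and 32.3 CPM in liver, 55.3, 59.2 and 63.5 CPM in pancreas, 65.8, 101 and 149 CPM in lung and 59.6, 170.3 and 225 CPM in kidney. In the gut wall it was 165, 169.9 and 181 CPM in IEL and 222, 256 and 260.3 CPM in LPL. Thus liver lay within the lymphoid range, 2 of 3 lung and 2 of 3 kidney libraries lay above all 9 lymphoid libraries, and all 6 gut wall libraries did. Peyer's patch, at 32.0, 41.8 and 47.3 CPM, lay inside the lymphoid range although it also comes from the intestine. By mean CPM the order from low to high was liver, blood, spleen, Peyer's patch, lymph node, pancreas, lung, kidney, IEL and LPL, and neighbours in this order overlapped from liver to pancreas and from lung to IEL.

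**Figure D1:**
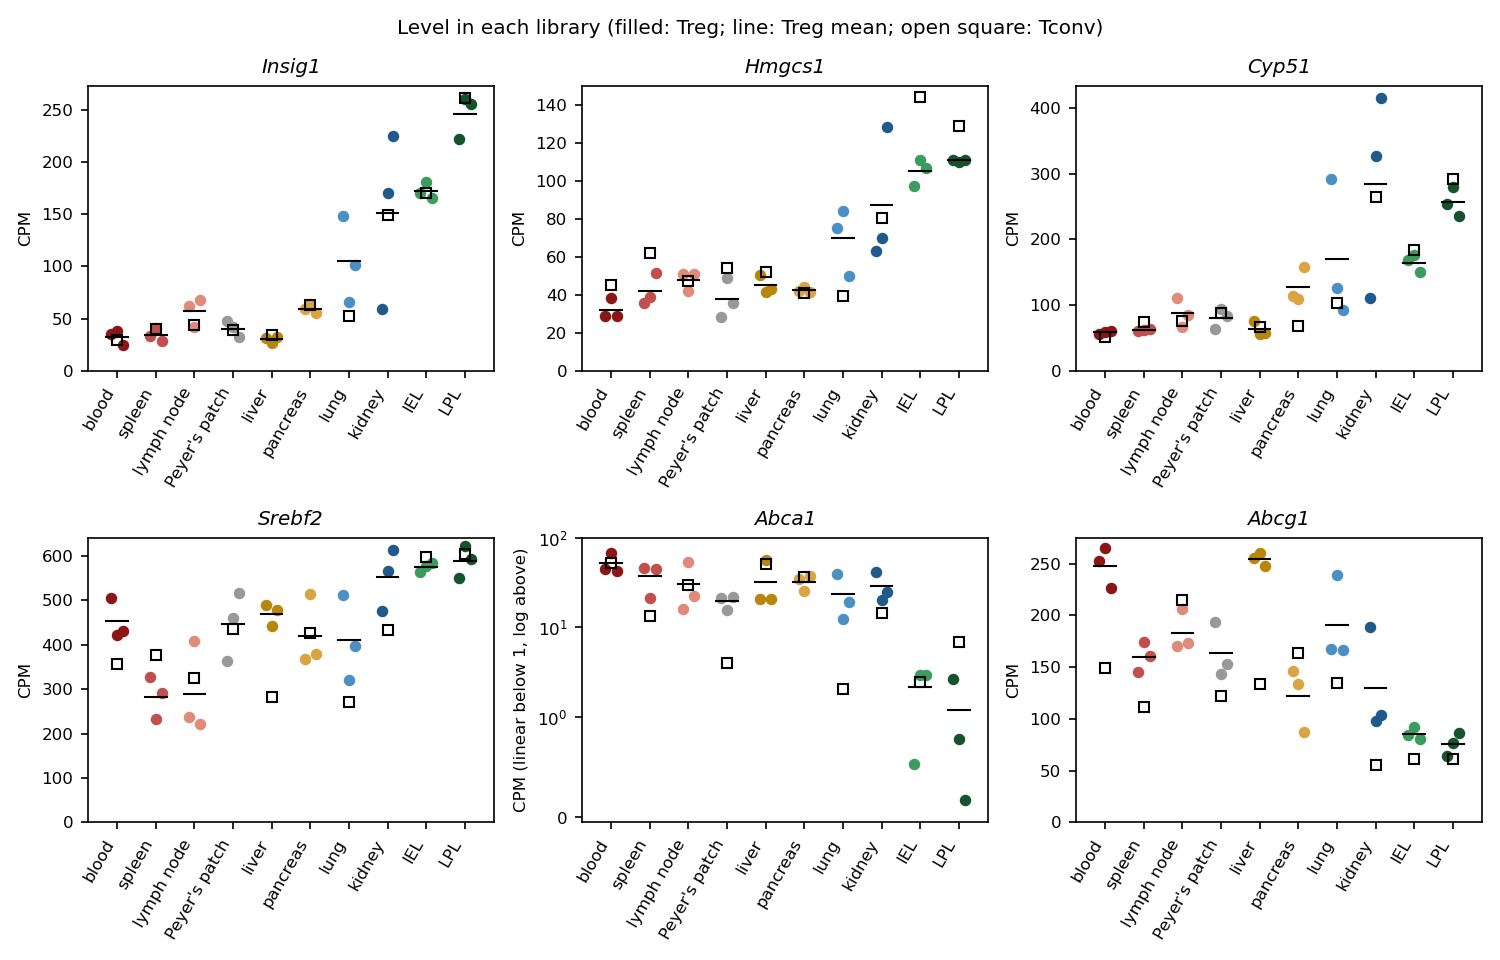
Level in CPM of 6 genes in each library by source, with filled points for the 3 Treg libraries, a line at their mean and an open square for the single Tconv library; the Abca1 axis is linear below 1 and logarithmic above. Insig1 ran from 24.3 CPM in a blood Treg library to 260.3 CPM in an LPL Treg library, while Abca1 lay at or below 2.99 CPM in all 6 gut wall Treg libraries and at or above 12.3 CPM in the other 24.

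Hmgcs1, the cytosolic synthase that makes HMG-CoA for mevalonate, followed a like order. It measured 28.7 to 51.4 CPM over the 9 lymphoid Treg libraries (median 38.7) and 97.3 to 111 CPM over the 6 gut wall libraries (median 110.5). Kidney gave 63.0, 69.8 and 129 CPM and lung 49.8, 75.3 and 84.3 CPM, whereas liver (41.7, 43.1 and 50.7 CPM) and pancreas (41.7, 41.8 and 44.1 CPM) stayed within the lymphoid range. The gut wall and all 3 kidney libraries therefore lay clear of the lymphoid libraries.

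Cyp51, the lanosterol demethylase, ranked differently at the top. Its level was 55.3 to 110.4 CPM in lymphoid Treg (median 61.7), 111, 327 and 415 CPM in kidney, 92.0, 126 and 291 CPM in lung, 109, 113 and 158 CPM in pancreas, 150.4, 168 and 176 CPM in IEL and 235, 254 and 279 CPM in LPL. The kidney held the highest single values of Cyp51 and the liver (56.4, 57.5 and 75.4 CPM) none above the lymphoid libraries.

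The next comparison set Treg of tissues against Treg of blood and lymphoid organs. Averaged over 6 tissue sources and 3 lymphoid sources, some sterol synthesis genes were higher and the export genes lower in tissue Treg. Of the 31 genes, 11 passed as higher, where 11.9% of all genes did, and 4 passed as lower, where 9.98% did. Of the 18 synthesis enzymes 7 were called higher and 0 lower, with a median log2 fold change of 0.40 against 0.03 over all genes tested, and all 3 export genes were called lower.

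Among the mevalonate enzymes 2 of 7 rose. Hmgcs1 rose by a log2 fold change of 0.84 ± 0.12 (SE; adjusted p = 2.8e-05), with 11 of 18 tissue libraries above every lymphoid library. Idi1, the isomerase of isopentenyl diphosphate, rose by 0.93 ± 0.20 (adjusted p = 0.0018), from 1.88 to 8.74 CPM in lymphoid Treg (median 4.63) to 2.63 to 15.5 CPM in tissue Treg (median 9.69). Mvk, mevalonate kinase, missed the threshold with 0.56 ± 0.21 (adjusted p = 0.062), and Pmvk, Mvd, Fdps and Acat2 had values of 0.46, 0.21, 0.18 and -0.13.

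Among the enzymes from squalene to cholesterol 5 of 11 rose. Cyp51 rose most, by 1.23 ± 0.18 (adjusted p = 3.4e-05), with 13 of 18 tissue libraries above every lymphoid library. Hsd17b7, a sterol ketoreductase, rose by 0.75 ± 0.19, Lss, lanosterol synthase, by 0.68 ± 0.19, Sqle, squalene epoxidase, by 0.62 ± 0.18 and Fdft1, squalene synthase, by 0.48 ± 0.16. The other enzymes Ebp, Sc5d, Tm7sf2, Nsdhl, Msmo1 and Dhcr7 had values between -0.12 and 0.35, and none of them passed. The increase was thus called for steps around squalene and lanosterol and for 1 ketoreductase, not for the whole chain. Part of the Fdft1 exons (774 of 4116 bases) overlaps Ctsb on the opposite strand, a protease gene at a mean of 827 CPM in Treg. Cyp51 shares 166 of 4415 exon bases with Akap9 on the opposite strand (mean 53.1 CPM in Treg). Tm7sf2 shares 532 of 4403 with Vps51 on the same strand (47.6 CPM). The strand setting of the counting is not given in the sources used here. The share of reads from the overlapping genes in these values was not tested.

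Among the regulators Insig1 rose by 1.38 ± 0.17 (adjusted p = 3.0e-06), a 2.59-fold difference, Srebf2, which encodes the sterol-directed SREBP, by 0.58 ± 0.11 (adjusted p = 0.00039) and Stard4, a carrier that moves sterol between membranes, by 0.60 ± 0.16 (adjusted p = 0.0072). Srebf2 ran from 222 to 505 CPM in lymphoid Treg (median 327) and from 321 to 622 CPM in tissue Treg (median 513), so the groups overlapped, with 10 of 18 tissue libraries above every lymphoid one. Within lymphoid Treg the blood libraries (422, 430.4 and 505 CPM) lay above all spleen and lymph node libraries of Srebf2. Srebf1, whose products steer fatty acid synthesis, Scap and the second INSIG gene Insig2 did not pass, at 0.26, 0.19 and -0.01. Insig2, the paralog of Insig1, lay between 24.7 and 70.8 CPM over all 30 Treg libraries.

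All 3 export genes fell. Abca1 (chr4:53030787-53159895) fell by 1.81 ± 0.30 on the log2 scale (adjusted p = 0.00011), Abcg1 by 0.56 ± 0.11 (adjusted p = 0.00046) and Mylip by 0.40 ± 0.12 (adjusted p = 0.019). The LXR gene Nr1h2 itself did not fall with them: it was 0.28 ± 0.09 higher (adjusted p = 0.038). In fatty acid synthesis Scd2, a stearoyl-CoA desaturase, fell by 0.40 ± 0.13 (adjusted p = 0.032), while Fasn, fatty acid synthase, and Acaca, acetyl-CoA carboxylase, gave 0.27 ± 0.21 and -0.15 ± 0.24 and did not pass.

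Leaving out single libraries in turn kept 11 of the 15 calls. Fdft1 was lost in 18 of 30 such fits (adjusted p up to 0.088), Nr1h2 in 20 (up to 0.10), Mylip without blood Treg replicate 2 (0.057) or spleen Treg replicate 4 (0.064), and Scd2 without blood Treg replicate 4 (0.078), lymph node Treg replicate 6 (0.078) or spleen Treg replicate 2 (0.072). With lymph node as the sole reference 4 genes remained higher (Insig1, Hmgcs1, Cyp51 and Srebf2) and 3 lower (Abca1, Abcg1 and Scd2), and with counts summed so that 6 tissue sources faced 3 lymphoid sources no gene in the table was called.

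**Figure D2:**
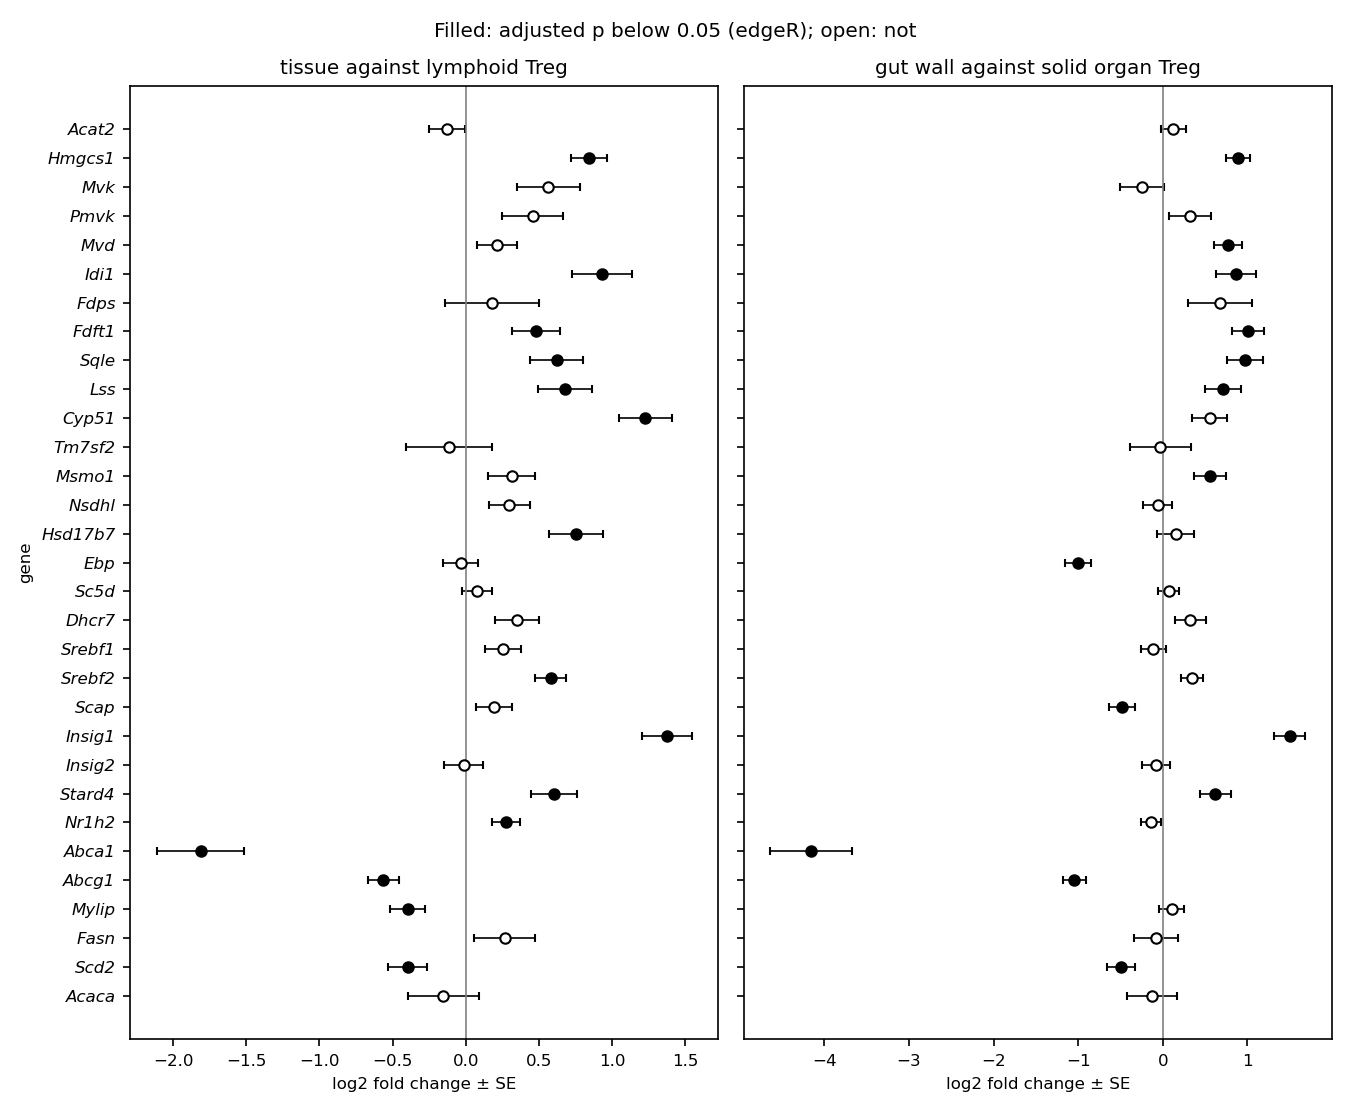
Fitted log2 fold change of each of the 31 genes with its SE, for tissue against lymphoid Treg and for gut wall against solid organ Treg; filled points passed an adjusted p of 0.05 in edgeR. Insig1 stood at 1.38 and 1.498 and Abca1 at -1.81 and -4.15 in the 2 comparisons, and Ebp at -0.03 and -1.003.

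The average over tissues hid large differences between sources, so each source was set against the same lymphoid libraries. Kidney Treg had 9 of 31 genes called higher (12.2% of all genes were) and 2 lower (4.25%). Cyp51 was up by 2.07 ± 0.26, a 4.19-fold difference, Insig1 by 1.93 ± 0.24, Hsd17b7 by 1.23 ± 0.28, Idi1 by 1.20 ± 0.30 and Hmgcs1 by 1.13 ± 0.18. Stard4 (0.96), Lss (0.81), Srebf2 (0.73) and Nr1h2 (0.51) were the other genes called higher, and Mylip (-0.72) and Abcg1 (-0.58) were called lower. Abca1 was not called in kidney (-0.44 ± 0.51), where its 3 libraries read 20.1, 24.5 and 41.3 CPM.

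One kidney library stood apart from the other 2. Kidney Treg replicate 1 held the lowest Insig1 (59.6 CPM), Cyp51 (111 CPM) and Sqle (26.8 CPM) of the kidney and its highest Abca1 (41.3 CPM) and Abcg1 (189 CPM). It was also the kidney library with the most tubule RNA, at 0.148% of counts against 0.0041% and 0.00267% in replicates 3 and 5, and with the least myeloid RNA, at 0.00232% against 0.017% and 0.0212%. Their part in the difference was not tested. Without this library 11 genes were called higher and 2 lower in kidney, without replicate 3 these counts were 6 and 0, and without replicate 5 they were 4 and 0. Cyp51, Hmgcs1 and Insig1 passed in every fit that left out 1 library, whereas Idi1 was lost without replicate 3 (0.87, adjusted p = 0.13), Hsd17b7, Srebf2 and Stard4 without replicate 5 (adjusted p = 0.053, 0.051 and 0.071), Nr1h2 and Mylip without either, and Lss and Abcg1 in 23 and 4 fits (adjusted p up to 0.34 and 0.23).

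Lung Treg had 7 genes called higher (8.64% of all genes) and 1 lower (2.85%). Insig1 was up by 1.39 ± 0.24, Cyp51 by 1.31 ± 0.27, Idi1 by 1.27 ± 0.30, Mvk by 1.18 ± 0.32, Hsd17b7 by 1.07 ± 0.28, Hmgcs1 by 0.80 ± 0.19 and Ebp, the sterol isomerase, by 0.79 ± 0.19, and Scd2 was lower (-0.78 ± 0.23). The Mvk value rested on a single library, lung Treg replicate 1, which read 40.4 CPM where the other 2 read 11.6 and 12.7 CPM. Without that replicate Mvk gave 0.34 (adjusted p = 0.54), Cyp51 0.66 (adjusted p = 0.088) and Scd2 lost its call (adjusted p up to 0.12 over the 2 fits in which it was lost). Hmgcs1 was lost without replicate 5 (0.64, adjusted p = 0.066), Hsd17b7 without replicate 5 or 6 (adjusted p up to 0.079) and Ebp without replicate 6 (0.63, adjusted p = 0.077), so Insig1 and Idi1 were the genes called in each of these fits. Replicate 1, highest in Insig1 (149 CPM) and Cyp51 (291 CPM), had the lowest myeloid share of the lung, 0.00114% against 0.161% and 0.0486% in replicates 5 and 6.

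Pancreas Treg had 2 genes called higher (7.64% of all genes) and 2 lower (2.31%). Mylip (-0.95 ± 0.21) and Abcg1 (-0.66 ± 0.18) were lower, while Cyp51 was up by 0.90 ± 0.27 and Mvk by 1.015 ± 0.33. Mylip read 25.1, 47.6 and 53.2 CPM, all below the 53.5 to 149 CPM of the lymphoid libraries. No gene was called higher or lower in pancreas without replicate 6, the library with 9.78% acinar counts and the lowest Mylip (25.1 CPM). Without it Mylip gave -0.66 (adjusted p = 0.057), Abcg1 -0.43 (0.20), Cyp51 0.74 (0.17) and Mvk 0.43 (0.56). Mvk was lost in 19, Cyp51 in 9 and Abcg1 in 2 fits that left out 1 library (adjusted p up to 0.56, 0.17 and 0.20).

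Liver Treg had 0 of the 31 genes called in either direction, where 0.955% of all genes were called higher and 0.162% lower. At an unadjusted p below 0.05 there were 9 of the 31, against 2196 of the 17909 genes tested. The export genes Mylip (0.56 ± 0.19) and Abcg1 (0.40 ± 0.17) had positive values in liver. Liver and blood Treg lay near each other in both genes: Mylip read 105, 117 and 137 CPM in liver and 91.8, 126 and 149 CPM in blood, and Abcg1 247, 256 and 260.4 CPM in liver and 226, 253 and 265 CPM in blood, above the other 8 sources by mean CPM. Peyer's patch Treg also had 0 genes called, against 2.94% of all genes higher and 0.625% lower. There 6 of the 31 had an unadjusted p below 0.05, against 2901 of the 17909 genes tested.

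IEL and LPL Treg had the same numbers of calls, 12 higher and 4 lower each. In IEL 13.5% of all genes were called higher and 7.77% lower, and in LPL 17.4% and 9.69%. Insig1 was up by 2.12 ± 0.24 in IEL and 2.63 ± 0.23 in LPL, Hmgcs1 by 1.40 ± 0.18 and 1.47 ± 0.18, Cyp51 by 1.28 ± 0.27 and 1.91 ± 0.26, Idi1 by 1.31 ± 0.30 and 1.72 ± 0.30, and Sqle by 1.23 ± 0.27 and 1.31 ± 0.27. Fdft1 (1.22 and 1.09), Lss (1.43 and 0.87), Mvd (0.87 and 0.59), Srebf2 (0.79 and 0.82) and Stard4 (0.79 and 1.24) were called higher in both. Pmvk (0.91) and Dhcr7 (0.65), the last reductase of the pathway, were called in IEL, and Hsd17b7 (1.18) and Msmo1 (0.74), a methylsterol oxidase, in LPL, but the difference between IEL and LPL was not tested. The genes called lower were Abca1 (-4.16 ± 0.67 and -5.002 ± 0.71), Abcg1 (-1.17 ± 0.19 and -1.35 ± 0.19), Ebp (-0.69 ± 0.21 and -0.72 ± 0.21) and Scd2 (-0.70 ± 0.23 and -0.76 ± 0.23). The median log2 fold change over all genes was 0.11 in IEL and 0.07 in LPL.

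In each gut fraction 11 of the 16 calls held in every fit that left out 1 library. In IEL, Ebp was lost without replicate 1 or 2, Stard4 without replicate 1 or 3, Scd2 without any 1 of its 3 libraries, and Pmvk and Dhcr7 in 16 and 25 fits (adjusted p up to 0.13, 0.098, 0.13, 0.18 and 0.22). In LPL, Hsd17b7 was lost without replicate 3, Lss without replicate 2 or 3, Scd2 without replicate 1 or 3, and Msmo1 and Mvd in 6 and 24 fits (adjusted p up to 0.056, 0.13, 0.079, 0.13 and 0.23).

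These 7 comparisons share their lymphoid control libraries, so their values stand side by side and their overlap is not read as a result. Acat2, Fdps, Tm7sf2, Nsdhl, Sc5d, Srebf1, Scap, Insig2, Fasn and Acaca did not pass in any of them, with values from -1.28 (Acaca, lung) to 1.006 (Fdps, lung).

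**Figure D3:**
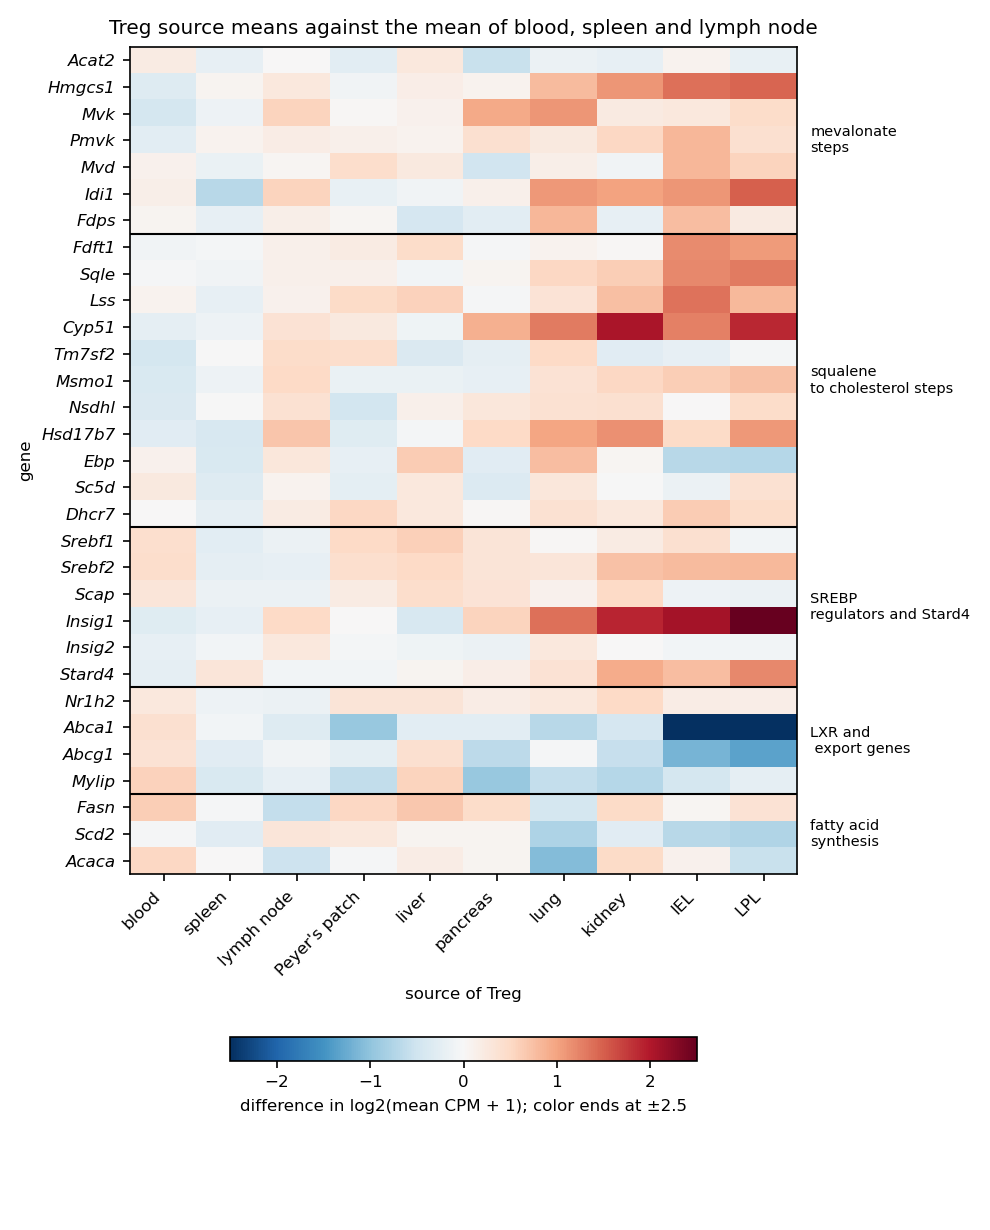
Difference between each source's Treg mean and the mean of blood, spleen and lymph node on the log2(mean CPM + 1) scale, for 31 genes in 5 role groups, with red above and blue below and the color ending at 2.5 either way. Insig1 is red in kidney, lung, IEL and LPL, the deep blue cells are Abca1 in IEL and LPL, and liver and Peyer's patch are pale.

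The gut wall was then set directly against the solid organs, a comparison that does not use the lymphoid means. Treg of the gut wall had 9 of the 31 genes higher, where 13% of all genes were, and 5 lower, where 10.6% were. Insig1 was 1.498 ± 0.19 higher (adjusted p = 2.6e-06), a 2.82-fold difference, and Abca1 fell by 4.15 ± 0.48 on the log2 scale (adjusted p = 1.1e-06), a 17.8-fold difference.

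Abca1 in gut wall Treg read 0.537, 2.98 and 2.99 CPM in IEL and 0.172, 0.785 and 2.66 CPM in LPL, which are 15, 88 and 68 counts and 4, 19 and 64 counts. In the 12 solid organ libraries it read 12.3 to 55.9 CPM (median 24.9), and in the 9 lymphoid libraries 16.0 to 66.9 CPM (median 44.7). No gut wall Treg library of Abca1 came within the range of any other Treg source, Peyer's patch (15.6, 21.4 and 22.0 CPM) included. No solid organ on its own was called for Abca1 against lymphoid Treg (values from -0.73 to -0.26).

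Abcg1 (chr17:31057675-31117988), the second pump, fell by 1.04 ± 0.14 (adjusted p = 7.0e-06). It read 63.8 to 91.8 CPM in the gut wall (median 82.6) and 87.0 to 260.4 CPM in the solid organs (median 167), with 5 of 6 gut wall libraries below every solid organ library. Mylip did not follow the pumps, at 0.10 ± 0.15 (adjusted p = 0.69), with 52.6 to 81.5 CPM in the gut wall against 25.1 to 137 CPM in the solid organs. The 3 LXR-driven genes therefore did not change as a block.

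Of the synthesis enzymes 7 of 18 were higher in the gut wall and 1 lower. Fdft1 (1.007 ± 0.19), Sqle (0.97 ± 0.21), Hmgcs1 (0.89 ± 0.14), Idi1 (0.87 ± 0.23), Mvd (0.77 ± 0.17), Lss (0.71 ± 0.21) and Msmo1 (0.56 ± 0.19) were higher. All 6 gut wall libraries of Fdft1 (50.7 to 73.3 CPM) lay above all 12 solid organ libraries (9.63 to 48.6 CPM), and Ctsb on the opposite strand is the same limit as above. Cyp51, so high in kidney, did not pass (0.55 ± 0.21, adjusted p = 0.054), and neither did Srebf2 (0.34 ± 0.13, adjusted p = 0.051).

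Ebp went the other way, with a log2 fold change of -1.003 ± 0.15 (adjusted p = 4.3e-05). This isomerase shifts a double bond in the sterol ring late in the pathway. Its level was 42.4 to 58.9 CPM in the 6 gut wall libraries (median 50.7) and 59.8 to 167 CPM in the 12 solid organ libraries (median 101), with no overlap. Scap fell by 0.48 ± 0.15 (adjusted p = 0.023) and Scd2 by 0.49 ± 0.17 (adjusted p = 0.033), and Stard4 was 0.62 ± 0.18 higher (adjusted p = 0.015).

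Of these 14 calls 10 held in every fit that left out 1 library. Lss was lost without LPL Treg replicate 2 (0.65, adjusted p = 0.058), Scap without IEL replicate 1 or LPL replicate 1 or 3 (adjusted p up to 0.074), and Msmo1 and Scd2 in 13 and 7 fits (adjusted p up to 0.095 and 0.082). When counts were summed per source, so that 2 gut sources faced 4 solid organs, 1 of the 14 calls was left, that of Abca1 (-4.07, adjusted p = 0.010). Intestinal epithelial genes took a larger share of counts in the gut wall than in the solid organs (at most 0.00539%). In IEL replicates 1 and 2 the excess was slight, and Peyer's patch Treg replicate 1 held more, 0.00624%. IEL replicates 1, 2 and 3 held 0.0055%, 0.00565% and 0.0507% epithelial counts and 169.9, 181 and 165 CPM of Insig1, and LPL replicates 1, 2 and 3 held 0.0874%, 0.018% and 0.00784% and 222, 260.3 and 256 CPM. A trend with gene length was taken as the Spearman rho across genes of exon length with a library's deviation from the Treg mean. It overlapped between the gut wall and the solid organs, but every gut wall library lay above every lymphoid library. It was 0.119 to 0.286 in the gut wall, -0.276 to 0.104 in lymphoid Treg and -0.331 to 0.194 in the solid organs. In Peyer's patch it was -0.0487 to 0.218. Its median was 0.167 in IEL and 0.232 in LPL, against at most 0.13 (pancreas) in a solid organ. Proliferation genes took 0.0109% to 0.0265% of counts in the gut wall, 0.00279% to 0.0194% in the solid organs and 0.00114% to 0.0122% in lymphoid Treg. The part of these 3 measures in the differences was not tested.

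Lymph node against spleen Treg asked whether the reference side is uniform. Idi1 was the single gene called higher (1.17% of all genes were) and 0 were called lower (0.865%). Its 3 lymph node libraries read 5.26, 6.50 and 8.74 CPM and its 3 spleen libraries 1.88, 2.11 and 2.99 CPM, a log2 fold change of 1.56 ± 0.40 (adjusted p = 0.042). All 18 enzymes had positive values (median 0.44 against 0 over all genes tested), but the other 17 did not pass. The Idi1 call was lost in 22 of 30 fits that left out 1 library, among them those without any 1 of the spleen libraries or without lymph node replicate 7 or 10 (adjusted p up to 0.27), and 3 genes were called higher and 1 lower without lymph node replicate 6.

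Synthesis and export were then read together in each library as the mean log2(CPM + 1) of the 18 enzymes minus that of Abca1, Abcg1 and Mylip, given as values with no test. The difference was -1.96 ± 0.54 (SD, n = 9) in lymphoid Treg, -1.33 ± 0.66 (n = 12) in solid organ Treg and 0.54 ± 0.23 (n = 6) in gut wall Treg. Gut wall Treg libraries ran from 0.18 to 0.75 and all other Treg libraries lay at or below -0.49. By source the mean was -2.51 in blood, -2.08 in liver, -1.89 in spleen, -1.48 in lymph node, -1.33 in Peyer's patch, -1.28 in pancreas, -0.9998 in lung, -0.97 in kidney, 0.43 in IEL and 0.65 in LPL. Blood and liver Treg had the lowest values and IEL and LPL Treg the highest, and the zero of this scale has no meaning of its own since it sets levels of different genes against each other. Kidney spread most, from -1.85 in replicate 1 to -0.49 in replicate 5. The gut wall minus the solid organs came to 1.87, against an SD of 0.41 between libraries of 1 source, and with a pseudocount of 5 it came to 1.38. Of the 1.87, the enzymes gave 0.39 (5.09 ± 0.04 in the gut wall and 4.69 ± 0.28 in the solid organs) and the export genes -1.48 (4.54 ± 0.22 and 6.03 ± 0.45), in which Abca1 had by far the widest fold change.

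**Figure D4:**
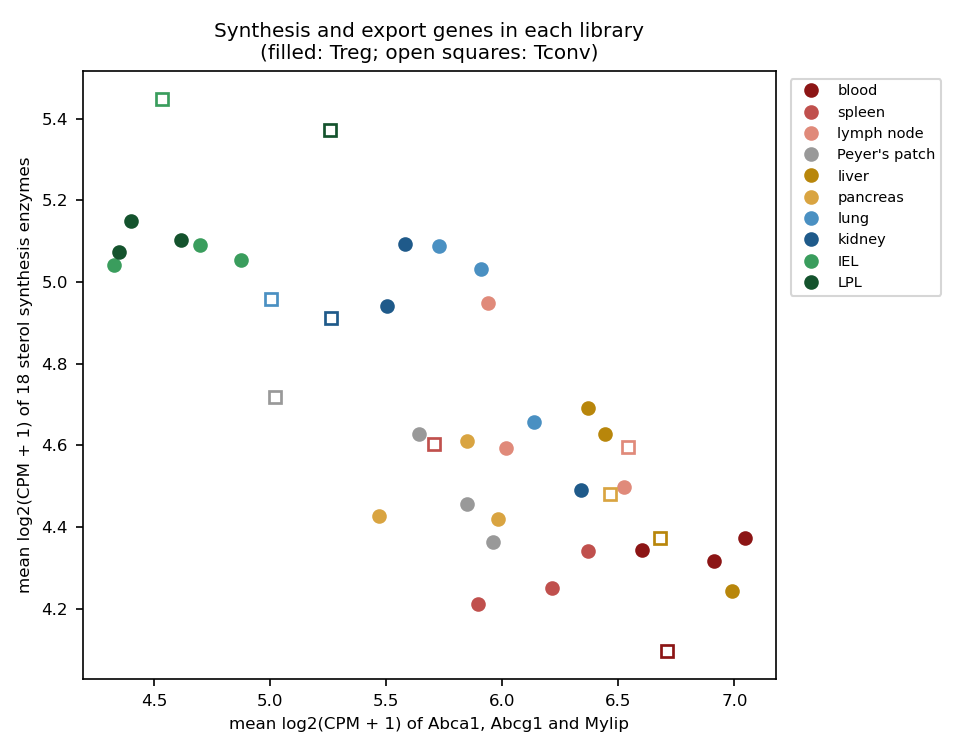
Mean log2(CPM + 1) of the 18 sterol synthesis enzymes (vertical) against that of Abca1, Abcg1 and Mylip (horizontal) in each of the 40 libraries, colored by source, with filled points for Treg and open squares for Tconv. IEL and LPL libraries of both cell types lie at the upper left and blood libraries at the lower right. Gut wall Treg lie at or above 5.04 on the vertical axis, as do kidney Treg replicate 5 (5.09) and lung Treg replicate 6 (5.09).

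Over the 10 source means of Treg, the genes whose levels ordered the sources most like Insig1 were Cyp51 (Spearman rho 0.95), Sqle (0.94), Pmvk (0.89), Hmgcs1 (0.84) and Idi1 (0.83). Abcg1 (-0.81) and Abca1 (-0.72) ordered them in reverse. The median rho of the 18 enzymes with Insig1 was 0.61, against 0.04 over 12573 genes with a mean of at least 1 CPM. The upper quartile over those genes was 0.45. Ebp (-0.49) and Acat2 (-0.31), the thiolase that makes acetoacetyl-CoA, were the enzymes with negative values, and Scd2 (-0.65), Fasn (-0.44) and Acaca (-0.31) of fatty acid synthesis were negative too. These are descriptions over 10 points that share libraries and depth, with no test.

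Tconv of the same sources were read next, first as a cell type difference averaged over sources. Such an average cannot show whether the pattern over sources belongs to Treg. With source in the model, 2 of the 31 genes were higher in Treg than in Tconv, where 9.88% of 14983 genes were, and 2 were lower, where 7.28% were. Abcg1 was 0.41 ± 0.12 higher in Treg (adjusted p = 0.013), and in 8 of 10 sources the Tconv library lay below all 3 Treg libraries. Ebp was 0.40 ± 0.12 higher (adjusted p = 0.021), with Tconv below all 3 Treg libraries in 6 of 10 sources. Mylip fell by 0.51 ± 0.11 (adjusted p = 0.0013), with Tconv above all 3 Treg libraries in 6 sources, and Lss fell by 0.61 ± 0.15 (adjusted p = 0.0038), with Tconv above in 8. The pump Abcg1 and the ligase Mylip thus differed in opposite directions between the cell types. Insig1 differed by 0.09 ± 0.13 and Hmgcs1 by -0.17 ± 0.11, and neither passed. The Ebp call was lost without the Tconv library of blood, kidney or liver (adjusted p up to 0.071). In a fit of 12 libraries in 6 same-numbered pairs, 0 of the 31 genes were called higher and 0 lower. That smaller fit called 635 genes in all, against 2571 in the main fit.

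Tissue Tconv had 1 library for each source, so 6 tissue libraries faced 3 lymphoid ones, and 0 of 31 genes were called higher (0% of 14453 genes) or lower (0%). At an unadjusted p below 0.05 edgeR gave 2120 genes, 4 of them among the 31, and DESeq2 called 1079 genes, among them Insig1 (1.69, adjusted p = 0.042), Fdft1 (1.39, adjusted p = 0.029) and Stard4 (1.43, adjusted p = 0.026) as higher. In edgeR 15 of 18 enzymes had positive and all 3 export genes negative values, with medians of 0.60 and -0.66. Insig1 in Tconv read 29.3, 39.8 and 43.5 CPM in blood, spleen and lymph node, 34.5, 52.6, 63.2 and 149 CPM in liver, lung, pancreas and kidney, and 170.3 and 261 CPM in IEL and LPL. The Tconv library lay inside the range of its 3 Treg libraries in 7 of the 10 sources, below all 3 in lung, and above all 3 in liver and LPL.

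Abca1 was low in gut wall Tconv too, at 2.48 CPM in IEL and 6.93 CPM in LPL, but 2.05 CPM in lung and 4.07 CPM in Peyer's patch Tconv were as low. Tconv of blood, spleen and lymph node read 51.4, 13.5 and 29.7 CPM of Abca1. Whether low Abca1 marks the gut wall in Tconv could not be seen from single libraries.

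The tissue effect in Treg minus that in Tconv was tested in a model of all 40 libraries, in which the lone Tconv library of a source is assumed to vary like its Treg libraries. None of the 31 genes passed, where 0.402% of 17924 genes passed as higher and 0.87% as lower. An unadjusted p below 0.05 was found for 5 of the 31, against 1967 of the 17924 genes. DESeq2 called 599 genes in the same comparison and edgeR 228. For Insig1 the difference between the cell types was 0.04 ± 0.32 and for Abca1 -0.32 ± 0.63, and errors of this size do not show that the cell types act alike.

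A list of 28 other genes of sterol and lipid handling gives context, of which 27 passed the filter in the Treg comparisons, and the genes named from it were chosen after their values were seen. In tissue against lymphoid Treg 6 of them were higher and 0 lower, where 11.9% and 9.98% of all genes were. In gut wall against solid organ Treg 7 were higher and 5 lower, where 13% and 10.6% of all genes were. Elovl6, a fatty acid elongase, was 1.39 ± 0.31 higher in tissue (adjusted p = 0.0021) and 1.57 ± 0.34 higher in the gut wall than in the solid organs (adjusted p = 0.0015), with 33.5 to 49.9 CPM in the gut wall, 1.80 to 37.2 CPM in the solid organs and 3.77 to 12.9 CPM in lymphoid Treg. Acss2, which makes acetyl-CoA from acetate, fell by 0.98 ± 0.11 in the gut wall against the solid organs (adjusted p = 6.5e-07), from 56.7 to 134 CPM down to 37.7 to 61.3 CPM. Tecr, a reductase of fatty acid elongation, fell by 0.69 ± 0.10 and Npc2, a lysosomal cholesterol carrier, by 0.83 ± 0.13 in the same comparison. Fatty acid genes thus moved in both directions in the gut wall, up for Elovl6 and down for Scd2 and Acss2. Acss2 was also the single gene of this list whose tissue effect differed between cell types, by 0.995 ± 0.17 in Treg minus Tconv (adjusted p = 0.0016): by source mean it read 54.4 to 114 CPM in lymphoid and 40.7 to 126 CPM in tissue Treg, and it read 103 to 145 CPM in lymphoid and 39.6 to 93.0 CPM in tissue Tconv. Its tissue effect was 0.03 ± 0.09 in Treg and -0.91 ± 0.26 in Tconv, neither of which passed.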

How the data were processed

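The authors deposited 1 table of read counts per gene for 40 libraries, made with STAR and featureCounts on mm10, per the submitters' processing notes. The annotation release and strand setting are not given in the sources used here, and 0 columns were unused. CPM values were computed here from each count and the effective (TMM-adjusted) library size. Tests used edgeR 4.0.16 (filterByExpr, TMM, robust quasi-likelihood F test, Benjamini-Hochberg adjusted p below 0.05 over all genes tested). They ran on 30 Treg libraries with 1 mean per source, on all 40 for differences between cell types, or on the Tconv libraries without Peyer's patch. Limma 3.58.1 supplied edgeR routines, and DESeq2 1.42.0 was an alternative. R 4.3.3 and Python 3.11.15 were used. Scripts were tested on simulated data.

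All 31 genes could be named, with library values for the called genes of lowest p. Other pathway genes were named from those of lowest p, and some are not reported here. The genes and lists were chosen with earlier results of these data known. Alternatives were DESeq2 size factors, no filter, DESeq2, the replicate block, each lymphoid source as sole reference, counts summed per source, a pseudocount of 5, and each library left out. Depth was 12197980 to 28823493 counts, and counting error is smallest for the deeper libraries.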

Additional observations from a re-analysis of the deposited data

Results flagged for a closer look

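The tissue effect on 14 of the 31 genes differed between the gut wall and the solid organs, by the test of that difference in edgeR. The log2 difference, gut wall minus solid organ Treg, was 1.4976 for Insig1, 1.0068 for Fdft1, 0.9729 for Sqle, 0.8871 for Hmgcs1, 0.8670 for Idi1, 0.7743 for Mvd, 0.7126 for Lss, 0.6198 for Stard4 and 0.5587 for Msmo1. It was -4.1542 for Abca1, -1.0447 for Abcg1, -1.0026 for Ebp, -0.4937 for Scd2 and -0.4810 for Scap. Intestinal epithelial genes took 0.0055% to 0.0874% of counts in gut wall Treg and at most 0.00539% in the solid organs. These ranges nearly met, and Peyer's patch Treg replicate 1 held 0.00624%. Epcam, counted among these genes, was read in every Treg library, so a small share need not be epithelial RNA. Proliferation genes overlapped between the gut wall and the solid organs, with medians of 0.0125% and 0.0111% of counts, and so did a trend with gene length. The part of these measures in the differences was not tested.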

How the results depend on the processing

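For tissue against lymphoid Treg, 11 higher became 6 with spleen alone, 4 with lymph node alone, 6 with blood alone and 0 with counts summed per source, 4 lower became 1 with spleen and 0 summed, and the 3910 genes called in all became 1377 with spleen, 2122 with blood, 1595 with the replicate block and 0 summed. Nr1h2 reversed with blood alone (-0.0023, adjusted p = 1); the cause was not tested. Over the single sources, 42 higher calls became 20 with lymph node alone, 13 lower became 8 with the replicate block and 4 with spleen, and 16274 in all became 7040 with the block, 6707 with spleen and 10545 with blood. For gut wall against solid organs, 9 higher and 5 lower became 0 and 1 (Abca1) when summed, and 4219 became 2173 with the block and 105 summed. For lymph node against spleen, 1 higher became 0 with DESeq2 size factors, no filter or the block and 2 with DESeq2, and 365 became 200 without the filter, 1141 with DESeq2 and 2 with the block. The 6185 genes differing by source became 3416 with the block. For Treg against Tconv, where the block used 12 libraries in 6 pairs, 2 higher and 2 lower became 0 and 0, and 2571 became 635. For tissue Tconv, 0 higher became 3 with DESeq2, and 0 in all became 18 without the filter and 1079 with DESeq2. The 228 genes whose tissue effect differed between cell types became 599 with DESeq2. The score difference of 1.87 became 1.38 with a pseudocount of 5.

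Leaving out each library gave 9 to 13 higher and 3 to 4 lower for tissue Treg (3163 to 4481 in all), 34 to 48 and 11 to 15 over single sources (13691 to 19820), 7 to 11 and 3 to 5 for the gut wall (3340 to 5008), 0 to 3 and 0 to 1 for lymph node (12 to 2327), 16 to 23 differing by source (5312 to 7830), 1 to 3 and 2 to 3 for Treg against Tconv (2237 to 2839), and 0 for tissue Tconv (0 to 116 in all). This was not run for the tissue effect in Treg minus Tconv. Residuals of 58 same-numbered pairs of libraries had a median correlation of -0.0038, with 4 above 0.1. Over 347 other pairs the median was 0.0017, with 12 above 0.1. These medians gave no sign of pairing by replicate number, but they cannot exclude that some libraries share an animal.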
